A study of Mus musculus with 54 samples.

Results

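The 8 genes described here encode interferon-inducible GTPases of 2 families, the guanylate-binding proteins Gbp2, Gbp3, Gbp5 and Gbp7 and the immunity-related GTPases Irgm1, Irgm2, Igtp and Ifi47. They were taken by symbol from the 33280 gene symbols of 3 count tables, and the choice was made with earlier results of these data known. All 8 passed the filter on low counts in each model. RNA was sequenced from macrophages sorted from mouse brain without choroid plexus, in 54 libraries that form 18 groups of 3 mice. Microglia (MG), the macrophages of the brain tissue, and subdural CNS-associated macrophages (sdCAMs), those of the leptomeninges and perivascular spaces, were sorted from each mouse. Wild-type (WT) C57BL/6JCrl mice and mice lacking the chemokine receptor CCR2 (Ccr2-/-, the B6.129S4-Ccr2tm1Ifc line) came in the same conditions: untreated with a PBS injection, vehicle (CTL) followed by lipopolysaccharide (LPS, bacterial endotoxin), or BLZ945 followed by LPS. BLZ945 inhibits the CSF1 receptor and depletes these macrophages, whose niches then refill, and injection followed 8 weeks after treatment and sorting 12 h after injection. Reporter mice, labelled Ccr2CreERT2/CreERT2:R26tdT/tdT, all received BLZ945 and tamoxifen and then PBS or LPS. Their Cre recombinase is driven by the Ccr2 locus, so the red protein tdTomato (tdT) marks cells, and descendants of cells, with an active Ccr2 locus at the time of tamoxifen, and CD206+ sdCAMs were sorted as tdT+ or tdT-. The reporter mice differed from the others in genotype, batch label, tamoxifen and control group (PBS after BLZ945, not untreated), and these cannot be told apart.

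Guanylate-binding proteins assemble on the vacuoles of intracellular pathogens and on bacteria in the cytosol, and they help to bring LPS to caspase-11, the cytosolic LPS sensor encoded by Casp4. Of the immunity-related GTPases, Irgm1, Irgm2 and Igtp reside on the cell's own membranes and restrain the effector members, to which Ifi47 belongs. Their genes are classical targets of interferon-gamma, and many also respond to type I interferon, which macrophages release after LPS reaches TLR4.

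The 4 guanylate-binding protein genes lie together on chromosome 3 of the mouse genome and the 4 immunity-related GTPase genes on chromosome 11. There, Irgm1 and Ifi47 (starts at 48861968 and 49076587) lie apart from Igtp and Irgm2 (58199556 and 58199618). Promoter windows of 300 bases per start site (RefSeq, GRCm38.p6, 250 bases before and 50 after the start) were matched to all 8 genes and searched on both strands for the core of the interferon-stimulated response element, GAAA and GAAA with any 2 bases between them, to which interferon regulatory factors bind. It was found in the windows of 7 of the 8 genes, and in 3.44% of the 32851 promoter windows of the table (3.99% of 27025 genes). Ifi47 was the gene without a match. The gamma-activated site TTCNNNGAA was present at Gbp5, Gbp7, Irgm2 and Igtp and in 8.3% of all windows. Such matches describe the letters in the window and were not tested for binding. The 170 bases before the start are shown for the gene with the largest LPS change (Gbp2), the one that followed it most closely (Gbp5), the overlapping pair Igtp and Irgm2, and Ifi47, in lower case with response element cores in capitals.

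Gbp2, chr3:142620493-142620662, plus strand: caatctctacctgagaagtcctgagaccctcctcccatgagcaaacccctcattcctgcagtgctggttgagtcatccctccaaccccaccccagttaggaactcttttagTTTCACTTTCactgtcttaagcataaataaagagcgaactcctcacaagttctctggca

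Gbp5, chr3:142496764-142496933, plus strand: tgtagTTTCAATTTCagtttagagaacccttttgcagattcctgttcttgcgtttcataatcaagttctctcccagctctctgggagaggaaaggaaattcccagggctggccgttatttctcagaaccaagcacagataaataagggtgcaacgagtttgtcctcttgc

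Igtp, chr11:58199386-58199555, plus strand: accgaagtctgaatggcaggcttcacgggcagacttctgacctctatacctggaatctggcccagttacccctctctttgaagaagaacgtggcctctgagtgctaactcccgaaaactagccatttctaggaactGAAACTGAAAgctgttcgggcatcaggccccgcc

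Irgm2, chr11:58214807-58214976, plus strand: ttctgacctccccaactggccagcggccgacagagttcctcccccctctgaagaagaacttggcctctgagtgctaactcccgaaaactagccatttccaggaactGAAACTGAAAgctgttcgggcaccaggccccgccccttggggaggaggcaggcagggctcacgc

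Ifi47, chr11:49076417-49076586, plus strand: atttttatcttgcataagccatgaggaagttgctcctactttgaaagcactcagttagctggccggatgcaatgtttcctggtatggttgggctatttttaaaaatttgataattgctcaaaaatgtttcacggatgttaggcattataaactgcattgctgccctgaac

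The windows of Igtp and Irgm2 were alike, with 184 of 270 aligned bases identical (68.1%) and a longest shared run of 61 bases. Their transcripts also shared sequence. Of all 50-base windows of the Igtp exons, 11.8% occurred identically in Irgm2, and 7.83% of those of Irgm2 in other genes, mostly Igtp. The annotated genes overlap on the same strand, so reads can be split or lost between them, and the values of both are uncertain to that extent. For Gbp7, 12.7% of such windows occurred in other genes, mostly the pseudogene Gm43802, and for the other 5 genes the share was between 0.379% (Irgm1) and 4.81% (Ifi47, which overlaps Olfr56).

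Libraries held 1705930 to 11330781 counts. In MG the summed level of 4 microglial markers (P2ry12, Tmem119, Sall1 and Siglech) was 1680 to 21900 CPM (counts scaled to library size) and that of 5 sdCAM markers (Mrc1, Pf4, Cd163, Lyve1 and Ms4a7) 0.199 to 22.3 CPM. In libraries labelled sdCAM these sums were 135 to 5250 and 502 to 20800 CPM, and in 1 of them the microglial sum was the larger. That library, labelled tdT+ sdCAM of LPS mouse 5, had 2150 against 502 CPM, while the other tdT+ libraries after LPS had microglial sums of 231 and 262 CPM and sdCAM sums of 3640 and 2870 CPM. The sums came closest in the sdCAM libraries of untreated WT mouse 15, at 5250 against 6450 CPM, and WT BLZ945+LPS mouse 11, at 775 against 1750 CPM. Ccr2 itself was at 4.8 to 6.59 CPM in untreated MG and 2.36 to 5.28 CPM in untreated sdCAMs of Ccr2-/- mice, against 3.15 to 8.68 and 16.7 to 49.9 CPM in WT mice. After CTL+LPS it was at 0 to 0.715 CPM in WT sdCAMs and 3.12 to 5.49 CPM in Ccr2-/- sdCAMs, so the ranges were apart in the direction of the labels in untreated sdCAMs, were apart in the opposite direction after CTL+LPS and overlapped in untreated MG. The titles of the Ccr2-/- LPS libraries contradict their cell type labels, and the markers followed the labels. A few genes filled much of some sdCAM libraries after LPS. The 10 most abundant genes, led by Saa3, took 43.6% to 53.3% of all counts in WT sdCAMs after CTL+LPS and 28.3% to 46.7% in tdT- sdCAMs after LPS, and the TMM scaling factors of these libraries were 0.363 to 0.521 and 0.485 to 0.736. Where scaling to total counts alone, added after the data were seen, changes a call below, it is given. Levels are CPM scaled with TMM factors over all 54 libraries. A gene is called higher or lower where edgeR's quasi-likelihood test gave a Benjamini-Hochberg adjusted p under 0.05 over all genes tested together with a log2 change larger than 1 in either direction. Errors of log2 values are standard errors of the fitted model, which estimates the spread within the groups of 3 libraries over all groups of a fit. Where a fit holds 2 cell populations of the same mouse, their libraries were treated as independent unless mouse as a block is named.

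**Figure D1:**
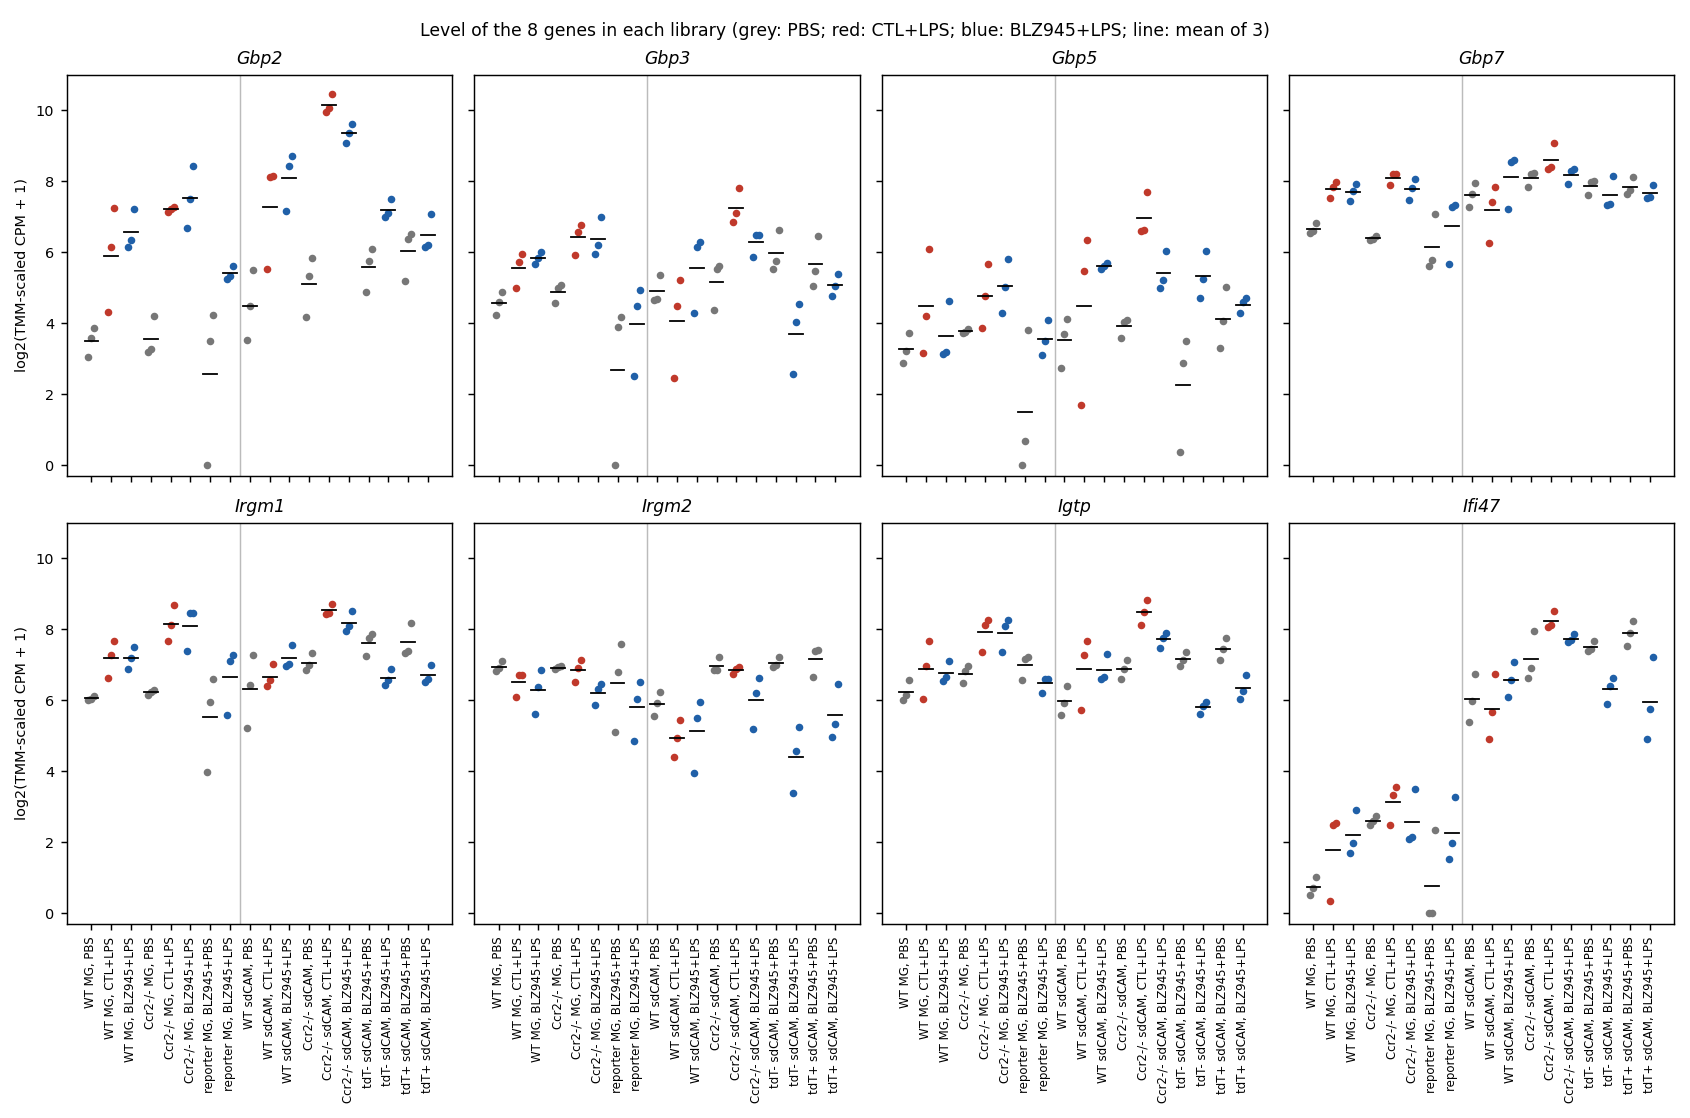
Level of each gene in each of the 54 libraries, as log2 of TMM-scaled CPM plus 1, with 3 points per group and a line at their mean on that scale. MG groups stand to the left of the grey line and sdCAM groups to the right, and Ifi47 is at 0 to 10.9 CPM in the MG libraries and at 28.8 CPM or more in the sdCAM libraries.

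At rest, the 2 cell types differed most in Ifi47. It was at 0.435, 0.64 and 1.04 CPM in untreated WT MG and at 40.7, 62.2 and 107 CPM in WT sdCAMs. In Ccr2-/- mice it was at 4.63, 5.03 and 5.68 CPM in MG and at 98.8, 120 and 246 CPM in sdCAMs. The cell types did not overlap in either genotype, as for 16.5% (WT) and 21.6% (Ccr2-/-) of all genes in that direction. The log2 difference was 6.69 ± 0.885 (adjusted p = 7.65e-05) in WT and 4.92 ± 0.434 (adjusted p = 7.04e-08) in Ccr2-/- mice. The WT MG values rest on 4 to 10 counts per library. In bulk samples, fewer cells of a type and less RNA per cell cannot be told apart. Ifi47 was the 1 gene of the 8 called higher in WT sdCAMs, where 11.9% of all genes were. In Ccr2-/- mice 3 of 8 were called higher (8.53% of all genes), with Gbp7 at 79.6 to 87.1 CPM in MG and 227 to 299 CPM in sdCAMs (1.72 ± 0.207, adjusted p = 3.63e-06) and Gbp2 at 8.11 to 17.5 and 17.1 to 55.6 CPM (1.70 ± 0.416, adjusted p = 0.00534). The WT difference of Gbp7 was 1.05 ± 0.397 (adjusted p = 0.0728) and passed with median-of-ratios factors (adjusted p = 0.0468) and with DESeq2 (adjusted p = 0.015). Microglial markers summed to 2870 to 5250 CPM in untreated WT sdCAM libraries and 1680 to 2500 CPM in those of Ccr2-/- mice, and their part in the differences was not tested.

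The regulatory GTPases Igtp, Irgm2 and Irgm1 were not called between cell types at rest in either genotype. Irgm1 differed by 0.85 ± 0.263 in Ccr2-/- mice (adjusted p = 0.0243), under the size limit. Igtp was at 63.6 to 94.8 CPM in WT MG and 46.6 to 83.5 CPM in WT sdCAMs. Per kilobase of exon, which allows genes to be compared, Igtp had the highest level of the 8 in each of the 8 MG groups, with a mean of 37.6 CPM per kb in untreated WT MG. In untreated Ccr2-/- sdCAMs and in reporter sdCAMs after PBS, Ifi47 led instead, with 62.7 CPM per kb in Ccr2-/- mice and 73.2 and 97.7 CPM per kb in tdT- and tdT+ cells. Gbp7 led in untreated WT sdCAMs at 35.4 CPM per kb. Gbp5 was the lowest gene per kilobase in each sdCAM group except tdT- after LPS, where Gbp3 was.

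In microglia, Gbp2 rose most of the 8 genes after LPS. This GTPase, which is recruited early to pathogen vacuoles, was at 7.31, 10.9 and 13.5 CPM in untreated WT MG and at 19, 69.8 and 149 CPM after CTL+LPS, a 7.67-fold rise (log2 2.94 ± 0.59, adjusted p = 0.00313). In Ccr2-/- MG it went from 8.11, 8.6 and 17.5 CPM to 140, 148 and 152 CPM, a 13.1-fold rise (3.71 ± 0.395, adjusted p = 8.82e-06). Every LPS library stood above every untreated library in both genotypes, as for 21.2% of all genes in WT and 26.3% in Ccr2-/- MG. The WT calls were 4 of 8, all higher, beside 9.08% of all genes. Beside Gbp2 these were Gbp3 (1.09 ± 0.251, adjusted p = 0.00668), Gbp7 (1.17 ± 0.171, adjusted p = 0.00044) and Irgm1 (1.23 ± 0.242, adjusted p = 0.00273), the last a regulator linked to autophagy and mitochondria.

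In Ccr2-/- MG 6 of 8 were called higher (10.5% of all genes), the same 4 with Gbp3 at 1.63 ± 0.279, Gbp7 at 1.76 ± 0.163 and Irgm1 at 2.04 ± 0.279, and in addition Igtp and Gbp5. Igtp rose from 88.3, 112 and 123 CPM to 162, 280 and 306 CPM (1.24 ± 0.252, adjusted p = 0.00158). Gbp5, which promotes inflammasome assembly, went from 12.2, 12.4 and 13.2 CPM to 13.6, 26 and 49.4 CPM (1.27 ± 0.42, adjusted p = 0.03), a call that was lost without CTL+LPS mouse V1m (0.70, adjusted p = 0.218) and without any of the untreated mice 1m, 3m and 5f (adjusted p = 0.0804, 0.07 and 0.0781). Irgm2 was at 116 to 123 CPM untreated and 91 to 139 CPM after LPS in Ccr2-/- MG (-0.01 ± 0.188), with a 95% interval of -0.41 to 0.40. In WT MG it was at 113 to 136 and 67.3 to 104 CPM, and its change was -0.39 ± 0.268 (adjusted p = 0.296).

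The count in WT MG depended on processing and on single libraries. Gbp5 (1.80 ± 0.667, adjusted p = 0.0593) was called higher on total counts (1.88, adjusted p = 0.0479) and with the study's low-count rule (adjusted p = 0.0449). Ifi47 (2.22 ± 0.874, adjusted p = 0.0737) was called higher with DESeq2 (adjusted p = 0.0296). CTL+LPS mouse 4 was the lowest of its group for all 8 genes and mouse 1 the highest for all 8. Without mouse 4, 7 genes were called, with Gbp5 at 2.26, Igtp at 1.14 and Ifi47 at 2.76 added, and without mouse 1 the count was 2. Markers moved with this order. The microglial sum was 3970 CPM in mouse 4, 3180 CPM in mouse 6 and 1680 CPM in mouse 1, and the sum of 4 neutrophil markers was 0.639, 1.8 and 9.32 CPM with S100a9, Ly6g and Retnlg at 0, and their part in the result was not tested. The difference between the genotypes in the LPS change passed for none of the 8 genes in MG (below).

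In sdCAMs of Ccr2-/- mice 5 of the 8 genes were called higher after LPS, against 10.9% of all genes. Gbp2 was at 17.1, 39.1 and 55.6 CPM untreated and at 982, 1060 and 1390 CPM after CTL+LPS, a 30.7-fold rise (4.94 ± 0.375, adjusted p = 1.09e-06). Gbp5 rose from 11, 15.4 and 16.1 CPM to 94.8, 97.9 and 205 CPM (3.23 ± 0.388, adjusted p = 4.96e-05). The groups were far apart for both. Gbp3 went from 19.7, 44.7 and 48.1 CPM to 115, 136 and 223 CPM (2.08 ± 0.355, adjusted p = 0.000766). Igtp went from 96.2, 118 and 140 CPM to 279, 357 and 451 CPM (1.62 ± 0.217, adjusted p = 0.000123). Irgm1 went from 114, 127 and 160 CPM to 342, 351 and 419 CPM (1.48 ± 0.199, adjusted p = 0.000127).

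The remaining genes moved less. Ifi47 was at 98.8, 120 and 246 CPM untreated and 267, 276 and 363 CPM after LPS. The groups did not overlap, as for 24% of all genes in that direction. The change of Ifi47, 0.96 ± 0.29 (adjusted p = 0.0251), fell short of the size limit. Gbp7 changed by 0.55 ± 0.22 (adjusted p = 0.0787). Irgm2 was at 114, 114 and 149 CPM untreated and 105, 116 and 121 CPM after LPS (-0.14 ± 0.292, adjusted p = 0.775). Over the 8 genes the median log2 change was 1.55, beside -0.05 over all genes tested. Leaving out each library in turn gave 5 or 6 called genes. The group of Ccr2-/- sdCAMs after CTL+LPS had the highest mean of all 18 groups for each of the 8 genes except Irgm2. The share of all genes with their highest mean in this group was not counted. For Gbp2, Gbp3 and Gbp5 the libraries of this group lay above those of the next group, and for Gbp7, Irgm1, Igtp and Ifi47 they overlapped.

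In WT sdCAMs 1 of the 8 genes was called higher, and 3.7% of all genes were. Gbp2 was at 10.4, 21.2 and 44.2 CPM untreated and at 45.4, 277 and 284 CPM after CTL+LPS (9.13-fold, log2 3.19 ± 0.799, adjusted p = 0.0398). The groups just separated, since the lowest LPS library, mouse 4, lay next to the highest untreated one. Gbp5 was at 5.71, 12 and 16.4 CPM untreated and 2.21, 43.1 and 79.3 CPM after LPS (2.10 ± 0.857, adjusted p = 0.156). Igtp changed by 1.31 ± 0.517 (adjusted p = 0.145). The log2 changes of the other 5 genes lay between -0.78 (Irgm2) and 0.37 (Irgm1), with standard errors of 0.503 (Irgm1) to 0.703 (Gbp3). The call of Gbp2 was lost in 5 of the 6 fits that left out 1 of these libraries, and without mouse 4, Gbp5 was called too (2.64, adjusted p = 0.0393). Scaled to total counts, the median of all genes was -1.55, Gbp2 changed by 1.83 (adjusted p = 0.0753) and Irgm2 was called lower (-2.28, adjusted p = 0.0362).

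Neutrophil markers moved with these WT libraries. Their sum (S100a8, S100a9, Ly6g and Retnlg) was 0 to 92.1 CPM in untreated WT sdCAMs and 341, 604 and 3080 CPM after CTL+LPS, with Ly6g and Retnlg at 0 in every library of both groups. In Ccr2-/- sdCAMs it was 0.918 to 2.45 CPM untreated and 61.1 to 95.7 CPM after CTL+LPS. The part of other cells in the changes was not tested.

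**Figure D2:**
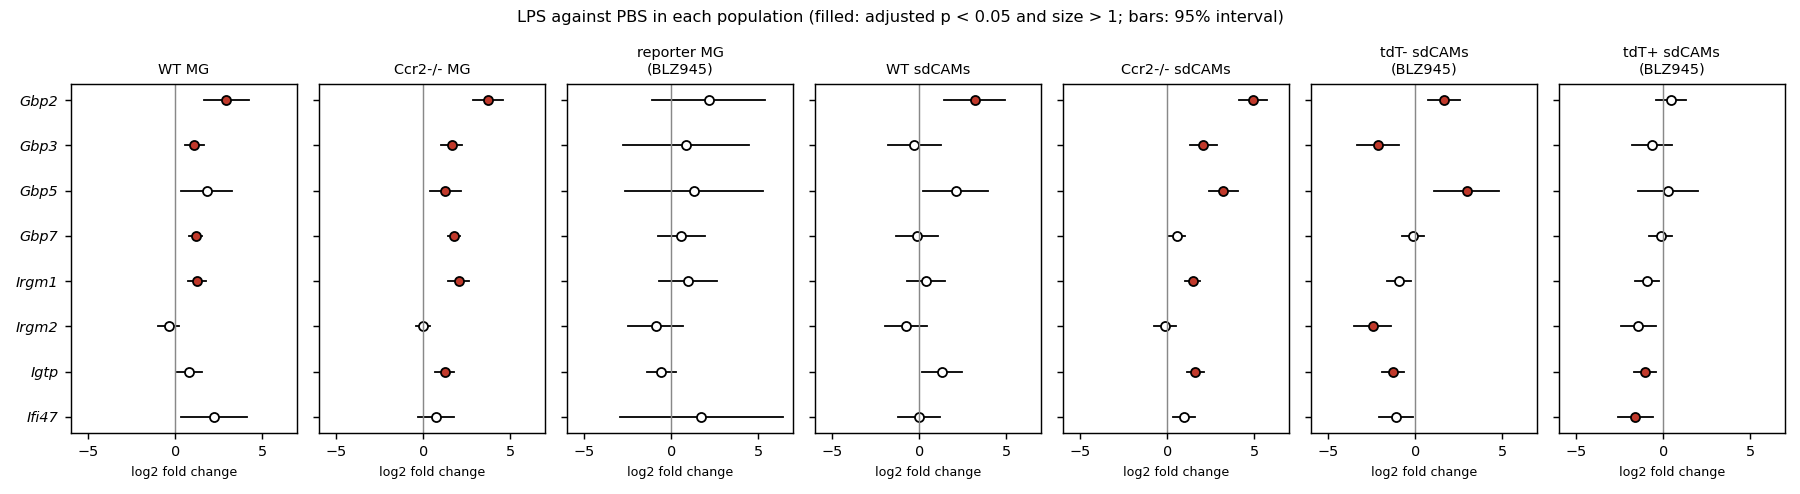
Log2 fold change of LPS against PBS for the 8 genes in 7 populations, with 95% intervals, where filled points passed the test. Gbp2 is the highest point in both WT and both Ccr2-/- panels, and Irgm2 is below 0 in all 7.

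After LPS, sdCAMs and MG of Ccr2-/- mice differed in Gbp2, Gbp5 and Ifi47. These 3 of 8 genes were called higher in sdCAMs, as were 9.29% of all genes. Gbp2, at 140 to 152 CPM in MG and 982 to 1390 CPM in sdCAMs, was 7.77-fold higher (2.96 ± 0.408, adjusted p = 1.76e-05). Gbp5 was 4.45-fold higher (2.16 ± 0.443, adjusted p = 0.00111). Ifi47, at 4.65, 8.99 and 10.9 CPM in MG and 267, 276 and 363 CPM in sdCAMs, was 36.7-fold higher (5.20 ± 0.43, adjusted p = 2.99e-08). Per kilobase, Gbp2 was the highest of the 8 in these sdCAMs (454 CPM per kb), whereas Igtp led in MG (123 CPM per kb).

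The test of the difference between the LPS changes of the cell types in Ccr2-/- mice called Gbp7 lower (-1.18 ± 0.284, adjusted p = 0.013), which rose by 1.76 in MG and by 0.55 in sdCAMs. It was 1 of 8 genes, with 4% of all genes called lower. The difference of Gbp5 was 1.99 ± 0.623 (adjusted p = 0.0579) and was called with mouse as a block (2.09, adjusted p = 0.00943), with DESeq2 (2.04, adjusted p = 0.0139) and without MG mouse V1m (2.53, adjusted p = 0.0149). For Ifi47 the difference was 0.27 with a 95% interval of -0.87 to 1.42.

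In WT mice after CTL+LPS, Ifi47 was again higher in sdCAMs, at 28.8, 49.8 and 106 CPM, than in MG, at 0.274, 4.63 and 4.82 CPM (4.38 ± 0.772, adjusted p = 0.000631). It was the 1 gene of 8 called higher (19.1% of all genes), and Irgm2 was the 1 called lower (16.3% of all genes). Irgm2 was at 67.3, 104 and 104 CPM in MG and 20.1, 29.9 and 42.9 CPM in sdCAMs (-1.42 ± 0.443, adjusted p = 0.0188). The 6 WT sdCAM libraries with an IEG correction mark, whose meaning the labels leave unstated, include all 3 of this group, and with the mark as a covariate the Irgm2 difference was -0.67 (adjusted p = 0.557). The Irgm2 call was also lost without MG mouse 1 (adjusted p = 0.0569), MG mouse 6 (adjusted p = 0.0563) or sdCAM mouse 6 (adjusted p = 0.0773). With mouse as a block Gbp2 was called higher as well (1.55, adjusted p = 0.0132, against 1.49 ± 0.711 and adjusted p = 0.106 without it). Scaled to total counts, at which the median of all genes was -1.92, Gbp3, Gbp7, Irgm1 and Igtp were called lower beside Irgm2, and Igtp turned from 0.20 to -1.58 (adjusted p = 0.0207). The difference between the LPS changes of the cell types passed for 0 of 8 genes in WT mice (1.32% of all genes), by edgeR and by DESeq2, with 2 of 8 at an unadjusted p under 0.05. On total counts 4 were called lower, Gbp3, Gbp7, Irgm1 and Ifi47.

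**Figure D3:**
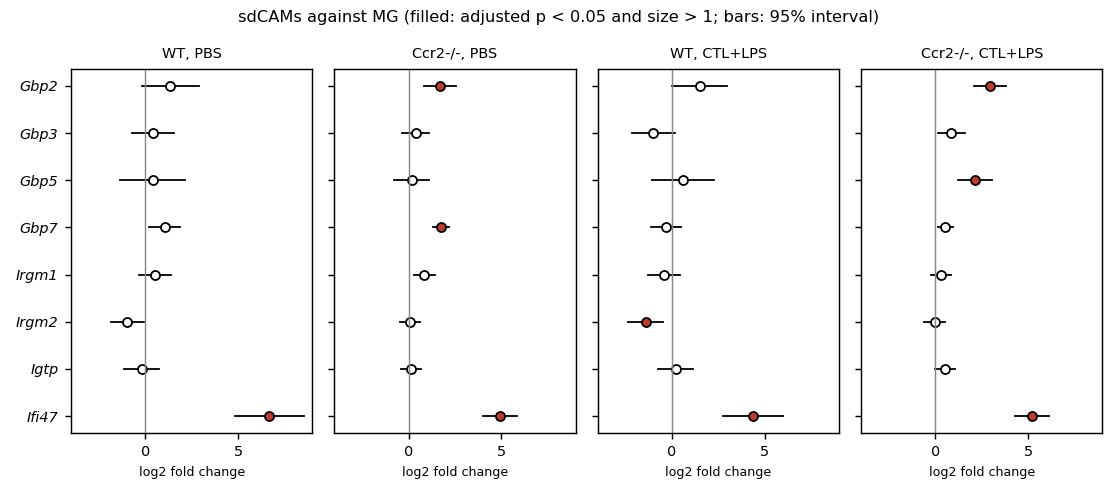
Log2 difference of sdCAMs from MG for the 8 genes in WT and Ccr2-/- mice after PBS and after CTL+LPS, with 95% intervals, where filled points passed the test. Ifi47 lies between 4.38 and 6.69 in the 4 panels and no other gene is above 2.96.

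In mice that received BLZ945, 8 weeks after treatment, none of the 8 genes passed the test against CTL after LPS in MG or sdCAMs of either genotype. The share of all genes called was 0.0763% in WT MG, 0% in WT sdCAMs, 0.0173% in Ccr2-/- MG and 0% in Ccr2-/- sdCAMs. At an unadjusted p under 0.05 the counts of the 8 were 0, 0, 1 and 5, and DESeq2 called 0, 0, 0 and 1. In MG the groups largely overlapped. Gbp2 was at 70.3, 80 and 148 CPM in WT MG after BLZ945+LPS and 19, 69.8 and 149 CPM after CTL+LPS, and its difference was 0.34 with a 95% interval of -0.82 to 1.49. In Ccr2-/- MG the difference was 0.48 with an interval of -0.26 to 1.22. Irgm2, at 56.9, 78.8 and 87.6 CPM against 91, 119 and 139 CPM, was the gene that did not overlap (-0.65 ± 0.19, adjusted p = 0.627). Of all genes tested, 5.41% did not overlap with BLZ945+LPS lower.

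The widest contrast was in Ccr2-/- sdCAMs, where all 8 estimates were below 0, with a median of -0.76 beside 0.01 over all genes tested. For 6 of the 8 genes all BLZ945+LPS libraries lay below all CTL+LPS libraries, as for 6.88% of all genes. Gbp5 was at 30.8, 36.4 and 64.9 CPM after BLZ945+LPS and 94.8, 97.9 and 205 CPM after CTL+LPS (-1.60 ± 0.361, adjusted p = 0.253 by edgeR). DESeq2 called it lower (adjusted p = 0.00502). Gbp2 was at 534, 652 and 781 against 982, 1060 and 1390 CPM (-0.81 ± 0.317, adjusted p = 0.539). Gbp3 (-1.02 ± 0.343), Igtp (-0.79 ± 0.213), Irgm2 (-0.73 ± 0.294) and Ifi47 (-0.52 ± 0.288) were the other 4 that did not overlap. In the CTL+LPS group mouse V1m was the highest library for all 8 genes, and in the BLZ945+LPS group mouse B4f was the lowest for 7.

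In WT sdCAMs the same contrast had a median of 0.41 beside 0.07 over all genes, with wide intervals. Gbp2 was at 141, 341 and 417 CPM after BLZ945+LPS and 45.4, 277 and 284 CPM after CTL+LPS (0.42, 95% interval -1.18 to 2.03). BLZ945+LPS mouse 12, the lowest of its group for 7 of the 8 genes, resembled the CTL+LPS libraries in its scaling factor (0.392) and its share of counts in 10 genes (43.6%), while mice 8 and 11 had factors of 1.214 and 1.305 and shares of 13.1% and 12%. The difference between genotypes in the BLZ945 contrast passed for 0 of 8 genes in MG (0% of all genes) and 0 of 8 in sdCAMs (0% of all genes), by edgeR and by DESeq2, with 0 and 2 of 8 at an unadjusted p under 0.05. Without WT mouse 12, Gbp3 (-2.75, adjusted p = 0.0156) and Gbp7 (-1.71, adjusted p = 0.0439) were called in sdCAMs, and on total counts Gbp3 was (-3.86, adjusted p = 0.0471).

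**Figure D4:**
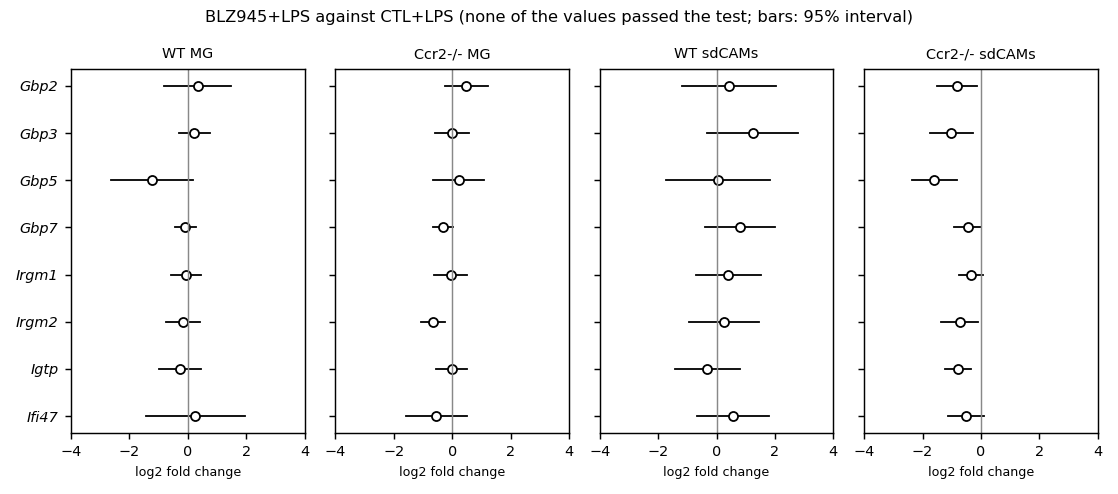
Log2 fold change of BLZ945+LPS against CTL+LPS for the 8 genes in 4 populations, with 95% intervals. All points of the Ccr2-/- sdCAM panel are below 0, from -0.34 (Irgm1) to -1.60 (Gbp5), and none passed the test.

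Between genotypes at rest, 1 gene was called in MG. In untreated MG, Ifi47 was higher in Ccr2-/- mice, at 4.63 to 5.68 CPM against 0.435 to 1.04 CPM (2.82 ± 0.768, adjusted p = 0.0165), as were 1.26% of all genes. These are 45 to 56 counts against 4 to 10, and the call was lost without WT mouse 9 (adjusted p = 0.0636) or 15 (adjusted p = 0.0687). In untreated sdCAMs 0 of 8 genes were called (9.5% of all genes) by edgeR and by DESeq2, with 3 at an unadjusted p under 0.05, and the largest estimates were 1.11 ± 0.475 for Ifi47 and 1.05 ± 0.44 for Irgm2. The difference between genotypes in the LPS change passed for 0 of 8 genes in MG (0% of all genes) and 0 of 8 in sdCAMs (0% of all genes), by both tools, with 2 and 3 at an unadjusted p under 0.05. Its size in sdCAMs was 2.52 ± 0.798 for Gbp3 (adjusted p = 0.221) and 1.93 ± 0.868 for Gbp2 (adjusted p = 0.339), with 95% intervals of 0.84 to 4.19 and 0.11 to 3.75.

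In reporter mice, all repopulated after BLZ945, Irgm2, Gbp3, Ifi47 and Igtp fell after LPS in sdCAMs, in the mean of tdT+ and tdT- cells. The LPS libraries behind these falls were also smaller. Totals of tdT+ libraries lay between 2060240 and 5467630 with LPS, but between 8652557 and 9290262 with PBS. For tdT- cells the corresponding ranges were 3211833 to 8751293 and 9182362 to 9850283. Lars2 was the most abundant gene in each tdT+ LPS library, and Apoe in each reporter sdCAM library of the PBS mice. The part of library size and composition in these falls was not tested. In reporter MG 0 of 8 genes were called after LPS (1.08% of all genes), by edgeR and by DESeq2, with 0 at an unadjusted p under 0.05. Gbp2 was at 0, 10.2 and 17.6 CPM after PBS and 37, 39.2 and 47.9 CPM after LPS (2.16 ± 1.40, adjusted p = 0.595). The groups did not overlap, as for 14.2% of all genes in that direction. The PBS library of mouse 175 stood apart, with Gbp2, Gbp3, Gbp5 and Ifi47 at 0 counts of 9841288, and 10815 genes detected against 12186 and 12333 in the other 2. Igtp was at 93.4, 142 and 149 CPM after PBS and 73.5, 95.8 and 96.5 CPM after LPS (-0.57 ± 0.362, adjusted p = 0.58).

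In tdT- sdCAMs the called genes went in both directions. Gbp2 and Gbp5 were called higher after LPS, 2 of 8 genes against 14.5% of all genes. Gbp3, Irgm2 and Igtp were called lower, 3 of 8 against 12% of all genes. Gbp2 was at 28.6, 52.4 and 66.7 CPM after PBS and 125, 136 and 180 CPM after LPS (1.65 ± 0.428, adjusted p = 0.00958). Gbp5 was at 0.301, 6.35 and 10.3 CPM after PBS and 25, 36.6 and 64.5 CPM after LPS (2.97 ± 0.878, adjusted p = 0.0204). The PBS and LPS groups did not overlap for these genes or for the 3 that fell, nor for Irgm1 and Ifi47, which were lower. Of all genes tested, 20.2% did not overlap with LPS higher and 26% with LPS lower.

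Irgm2 was at 122, 126 and 149 CPM after PBS and 9.42, 22.9 and 36.9 CPM after LPS in tdT- sdCAMs, or 0.183 of its PBS level (-2.45 ± 0.495, adjusted p = 0.00175). Gbp3 was at 44.6, 52.9 and 97.1 CPM and 4.94, 15.2 and 22 CPM (-2.15 ± 0.57, adjusted p = 0.011). Igtp was at 124, 141 and 163 CPM and 48.2, 56.5 and 61.5 CPM (-1.29 ± 0.301, adjusted p = 0.00504). Irgm1 (-0.93 ± 0.321, adjusted p = 0.0423) and Ifi47 (-1.10 ± 0.466, adjusted p = 0.0915) were not called, Irgm1 for its size, and Gbp7 was near 0 (-0.13 ± 0.305). With mouse as a block Ifi47 was called lower (-1.19, adjusted p = 0.0422). The calls in tdT- sdCAMs depended on single libraries and on scaling. Gbp2 was lost without PBS mouse 177 (1.33, adjusted p = 0.0643) and Gbp3 without PBS mouse 174 (-1.76, adjusted p = 0.0593). Gbp5 was lost without LPS mouse 5 (2.50, adjusted p = 0.0648) or PBS mouse 174 (3.04, adjusted p = 0.0585). On total counts, at which the median of all genes was -0.75, Gbp2 (0.87, adjusted p = 0.135) and Gbp5 (2.08, adjusted p = 0.0698) were no longer called and Irgm1 (-1.76) and Ifi47 (-1.85) were called lower too. Neutrophil markers summed to 553, 1010 and 2160 CPM in these LPS libraries and to 0 after PBS, with Ly6g and Retnlg at 0 throughout, and their part in the result was not tested.

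In tdT+ sdCAMs 2 of 8 genes were called lower after LPS (5.82% of all genes). Ifi47 was at 184, 238 and 303 CPM after PBS and 29.3, 53 and 148 CPM after LPS (-1.62 ± 0.472, adjusted p = 0.0334). Igtp was at 139, 172 and 214 CPM and 64.9, 76.5 and 103 CPM (-1.07 ± 0.299, adjusted p = 0.0271). The groups did not overlap for either gene, nor for Irgm1 and Irgm2, as for 19% of all genes in the lower direction. Both calls were fragile, since each was lost in 4 of the 6 fits that left out 1 of these libraries. Neither was made on total counts (Ifi47 -1.38, adjusted p = 0.0723, and Igtp -0.80, adjusted p = 0.11). Irgm2 changed by -1.44 ± 0.473 (adjusted p = 0.0556) and Irgm1 by -0.94 ± 0.321 (adjusted p = 0.0645). Irgm2 was called lower with mouse as a block (-1.32, adjusted p = 0.0439), with DESeq2 (-1.42, adjusted p = 0.0281) and with the study's low-count rule (-1.47, adjusted p = 0.0453). Gbp2 was at 35.7, 81.4 and 90.9 CPM after PBS and 70, 72.5 and 134 CPM after LPS (0.45, 95% interval -0.44 to 1.34). Marker sums moved in the same libraries. From PBS to LPS, sdCAM markers went from 6530 to 7270 CPM to 502 to 3640 CPM, 4 monocyte markers from 233 to 289 CPM to 20.6 to 69.4 CPM, 5 T and NK cell markers from 14.6 to 93.6 CPM to 0.305 to 10.3 CPM, and neutrophil markers from 0 to 1.39 CPM to 8.31 to 46 CPM with Ly6g and Retnlg at 0. Of the monocyte markers Vcan was called higher and Ccr2 lower, and of the T and NK cell markers none was called by edgeR, with 1 (Trbc2) at an unadjusted p under 0.05. Their part in the result was not tested.

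A pair of LPS libraries, tdT- of mouse 1 and tdT+ of mouse 7, carry sequencing index numbers that the labels give to each other. With these exchanged, or with both left out, 0 genes were called in tdT+ sdCAMs, with Ifi47 at -1.42 in each case. In tdT- sdCAMs, 2 were called after the exchange, Irgm2 and Igtp. Without tdT+ mouse 5, the library of microglial markers, Ifi47 was no longer called (-1.24, adjusted p = 0.0711) and Irgm2 was (-2.04, adjusted p = 0.0146). In the mean of the changes in tdT+ and tdT- cells, Gbp2 (1.05 ± 0.298, adjusted p = 0.0134) and Gbp5 (1.63 ± 0.592, adjusted p = 0.045) were called higher, 2 of 8 against 16.6% of all genes. Irgm2 (-1.95 ± 0.342, adjusted p = 0.000453), Gbp3 (-1.41 ± 0.392, adjusted p = 0.0118), Ifi47 (-1.36 ± 0.331, adjusted p = 0.00523) and Igtp (-1.18 ± 0.212, adjusted p = 0.00056) were called lower, 4 of 8 against 12.2%. The 4 lower calls held on total counts, with the libraries exchanged or left out, and in every fit that left out 1 library. Irgm1 was called lower too on total counts (-1.22, adjusted p = 0.000861). The 2 higher calls were lost on total counts and with both libraries left out. Gbp5 was also lost with the libraries exchanged and in 8 of the 12 fits that left out 1 library, and Gbp2 in 4 of those 12 and, at 1.00, with the study's low-count rule.

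Between tdT+ and tdT- sdCAMs of the same mice, none of the 8 genes passed. After PBS, 0 of 8 were called by edgeR and by DESeq2 (0.0236% of all genes), with 0 at an unadjusted p under 0.05, and Ifi47 was at 184 to 303 CPM in tdT+ and 168 to 202 CPM in tdT- cells (0.42, 95% interval -0.56 to 1.39). After LPS, 0 of 8 were called by both tools (10.6% of all genes), with 2 at an unadjusted p under 0.05, Gbp3 (1.21 ± 0.56, adjusted p = 0.199) and Irgm2 (1.15 ± 0.48, adjusted p = 0.149). On total counts, where the median of all genes was 1.14, Gbp3, Irgm1, Irgm2 and Igtp were called higher in tdT+ cells, between 1.10 (Irgm1) and 2.13 (Gbp3 and Irgm2).

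The LPS changes of the sdCAM populations were compared directly in tests added after these values had been seen. In them tdT+ and tdT- libraries of the same mouse were treated as independent, and no fit with mouse as a block was run. Against Ccr2-/- sdCAMs, the mean change of reporter sdCAMs was called lower for 6 of 8 genes, and for 4.71% of all genes. The difference was -3.87 ± 0.501 for Gbp2 (adjusted p = 7.32e-05), -3.47 ± 0.596 for Gbp3 (adjusted p = 0.000812) and -2.78 ± 0.318 for Igtp (adjusted p = 2.37e-05). For Irgm1 it was -2.39 ± 0.331 (adjusted p = 0.000138), for Ifi47 -2.30 ± 0.518 (adjusted p = 0.0062) and for Irgm2 -1.79 ± 0.511 (adjusted p = 0.0262). Gbp5 (-1.58 ± 0.79, adjusted p = 0.214) and Gbp7 (-0.67 ± 0.332, adjusted p = 0.207) did not pass. The 6 calls were also made on total counts and with median-of-ratios factors, and Irgm2 was lost in 5 of the 6 fits that left out a Ccr2-/- library. The levels behind these changes overlapped before LPS for Ifi47, at 98.8 to 246 CPM in untreated Ccr2-/- sdCAMs and 168 to 303 CPM in reporter sdCAMs after PBS. Gbp2 after LPS was at 70 to 180 CPM in reporter and 982 to 1390 CPM in Ccr2-/- sdCAMs. Ccr2-/- sdCAMs after BLZ945+LPS, the group that matches the reporter mice in having received BLZ945, were at 534 to 781 CPM for Gbp2. They also lay above reporter sdCAMs after LPS for Gbp3, Irgm1, Igtp and Ifi47. They overlapped them for Irgm2, at 35.7 to 97.3 CPM against 9.42 to 87.6 CPM, and for Gbp5 and Gbp7. How many of all genes separated these groups was not counted, and the part of BLZ945 was not tested.

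Against WT sdCAMs, the mean change of reporter sdCAMs was called lower for Igtp (-2.43 ± 0.507, adjusted p = 0.00702), 1 of 8 genes against 3.22% of all genes, and on total counts, with a median of all genes of 1.24, it was not (-1.26, adjusted p = 0.2). Gbp2 differed by -2.10 ± 0.739 (adjusted p = 0.0763), and without WT CTL+LPS mouse 4 by -2.58 (adjusted p = 0.0442).

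**Figure D5:**
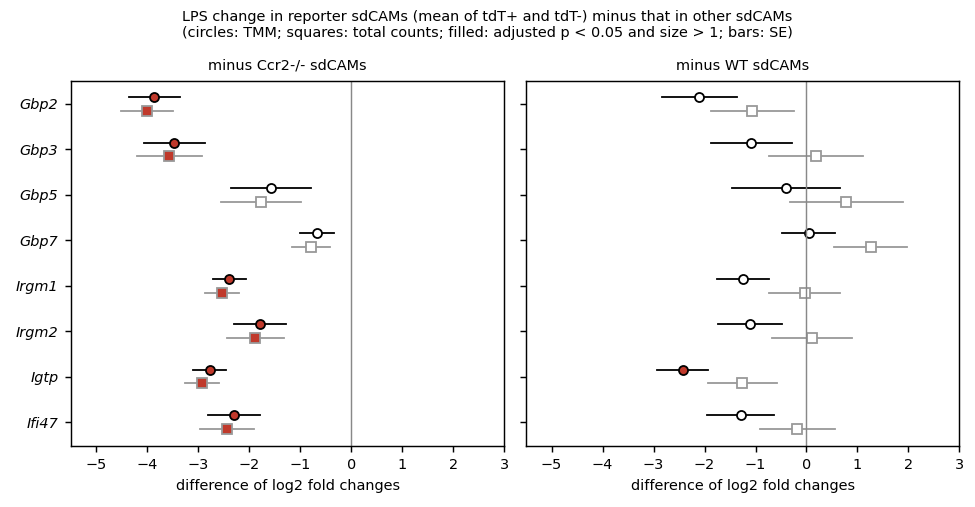
Difference between the LPS change of reporter sdCAMs and that of Ccr2-/- (left) or WT (right) sdCAMs, in log2 with standard errors, for TMM scaling (circles) and total counts (squares), where filled points passed the test. On the left 6 genes are filled with both scalings, and on the right Igtp is filled with TMM alone.

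The rest of the family and its pathways were followed as lists. Of 26 other guanylate-binding protein and immunity-related GTPase genes, 19 were in the tables. In Ccr2-/- sdCAMs after CTL+LPS, 8 of 17 tested were called higher and 1 lower, where 10.9% and 10.6% of all genes were. The median change of the 17 was 1.25. Gbp6 had the smallest p (3.86 ± 0.465, adjusted p = 5.08e-05), and Tgtp1, listed at 0 in the untreated libraries, was at 6.62 to 14.4 CPM. In Ccr2-/- MG 5 of 13 were higher (10.5% of all genes). The effector GTPase Iigp1 led them, at 0.112 to 0.873 CPM untreated and 2.46 to 21.1 CPM after LPS. In WT MG none of 14 was called by edgeR, where 16.7% of all genes were. The smallest p was that of Gm5431 (0.73 ± 0.21, adjusted p = 0.0203), under the size limit. In WT sdCAMs 1 of 12 was higher and 1 lower, where 3.7% and 2.62% of all genes were. In tdT- sdCAMs 1 of 15 was higher and 2 lower, where 14.5% and 12% of all genes were. Tgtp2 was at 56.6 to 61.6 CPM after PBS and 2.96 to 8.71 CPM after LPS (-3.17 ± 0.539, adjusted p = 0.000468). In tdT+ sdCAMs 2 of 15 were lower (5.82% of all genes), Tgtp2 (-3.45 ± 0.543) and Iigp1 (-1.45 ± 0.349). At rest 8 of 17 were called higher in Ccr2-/- sdCAMs than in MG and 0 lower, where 8.53% of all genes were higher, with Iigp1 at 85 to 167 CPM in sdCAMs. In WT mice 4 of 16 were higher and 1 lower, where 11.9% and 5.2% of all genes were.

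Of 11 genes of the interferon-gamma pathway, 10 were tested in Ccr2-/- sdCAMs. After LPS 4 of 10 were higher and 2 lower, where 10.9% and 10.6% of all genes were. The receptor subunit gene Ifngr1 fell (-1.01 ± 0.122, adjusted p = 5.28e-05) and the kinase gene Jak2 rose (1.80 ± 0.331, adjusted p = 0.00133). In tdT- sdCAMs 1 of 10 was higher and 5 lower, where 14.5% and 12% of all genes were. Among the lower were both receptor genes Ifngr1 (-2.62 ± 0.419, adjusted p = 0.000293) and Ifngr2 (-1.36 ± 0.317, adjusted p = 0.00483). In tdT+ sdCAMs 1 of 10 was lower (5.82% of all genes). It was Ciita, the activator of MHC class II genes, at 64.3 to 116 CPM after PBS and 0 to 0.396 CPM after LPS. In MG 2 of 9 were higher in WT (9.08% of all genes) and 3 of 9 in Ccr2-/- mice (10.5%). Nlrc5, the activator of MHC class I genes, rose by 2.45 ± 0.465 and 2.54 ± 0.347. Type I interferon genes were called higher in 5 of 11 in WT MG (9.08% of all genes) and 7 of 11 in Ccr2-/- MG (10.5%). In sdCAMs they were higher in 2 of 11 in WT (3.7%) and 5 of 11 in Ccr2-/- mice (10.9%). In tdT- sdCAMs 4 of 11 were higher (14.5%) and 1 lower (12%). Irf7, the amplifier of the response, rose by 2.50 ± 0.351 in WT MG, 3.73 ± 0.218 in Ccr2-/- MG and 3.39 ± 0.253 in Ccr2-/- sdCAMs. In tdT+ sdCAMs 1 of 11 was lower (5.82% of all genes), Usp18 (-1.65 ± 0.433, adjusted p = 0.0198), and none was higher (7.54%). Among 16 partners in ATG8 conjugation and cytosolic LPS sensing, Casp4 rose in Ccr2-/- sdCAMs (2.7 ± 0.245, adjusted p = 4.85e-06) and tdT- sdCAMs (2.91 ± 0.383, adjusted p = 5.21e-05), and Map1lc3a fell in both (-2.17 ± 0.272 and -1.80 ± 0.53).

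Across the 18 group means, on the log2(CPM + 1) scale, most of the 8 genes moved together. These points share mice and cell types, and the correlations are descriptions. Pearson's r with the mean of the other 7 was 0.93 for Irgm1, 0.88 for Gbp3, 0.83 for Gbp7, 0.77 for Gbp2, 0.74 for Igtp, 0.61 for Gbp5, 0.47 for Ifi47 and 0 for Irgm2. The closest pairs were Gbp3 with Irgm1 (0.91) and Gbp2 with Gbp5 (0.89). Irgm2 correlated with Igtp at 0.43 and with Gbp5 at -0.40. Among 8753 other genes whose group means averaged 10 CPM or more, the patterns most like the mean of the 8 were those of Nab1 (0.898), Slc31a1 (0.891), Tap1 (0.889), a transporter of antigenic peptides, Parp12 (0.886) and Stard7 (0.881).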

How the data were processed

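RNA of sorted MG and sdCAMs was amplified (SMARTer Ultra Low Input v4, Nextera XT) and read in single 50-base reads, without molecular identifiers. The authors deposited raw counts per gene symbol, made per the submitters' processing notes with bcl2fastq 2.20, STAR 2.7.11a, featureCounts 2.0.8 and DESeq2 1.46.0. The genome build and strand setting were not settled by the sources used here, so overlapping genes cannot be separated by strand. Amplification and a few abundant genes can shift all other values of a library, which TMM scaling is meant to correct.

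Groups came from the cell type, genotype and treatment labels, with 0 count columns unmatched. The 54 libraries held 1705930 to 11330781 counts, and no pair within a group was identical. In R 4.3.3, edgeR 4.0.16 (filterByExpr, TMM, quasi-likelihood test, two-sided, Benjamini-Hochberg) was fitted to all genes that passed the filter. The thresholds for a call were 0.05 for the adjusted p and 1 for the size of the log2 change, and intervals are 95%. Scripts were tested on simulated counts. Genes outside the 8 are named by a fixed rule, up to 4 per list with the smallest p in the comparison described, and the 5 most similar patterns. The members and lists were chosen with earlier results of these data known. Of the lists, 1 marker gene and 1 pathway gene are not reported here and entered no sum or count.

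MG and sdCAMs, and tdT+ and tdT- cells, of a mouse share its number in the labels, so they are paired. The correlations of same-mouse deviations were 0 to 0.13 in WT, -0.03 to 0.16 in Ccr2-/- and 0.04 to 0.16 in reporter mice. Alternatives were DESeq2 1.42.0, median-of-ratios factors, total counts, the study's low-count rule, no fold limit, a mouse block (limma 3.58.1 where random), the IEG mark as a covariate, exchanged or omitted libraries, and each library left out.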

Additional observations from a re-analysis of the deposited data

Results flagged for a closer look

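In Ccr2-/- mice the LPS change of Gbp7 differed between the cell types by -1.18 on the log2 scale, by the test of the difference itself, with a rise in MG and a smaller estimate in sdCAMs. The LPS change of reporter sdCAMs differed from that of Ccr2-/- sdCAMs by -3.87 for Gbp2, -3.47 for Gbp3, -2.39 for Irgm1, -1.79 for Irgm2, -2.78 for Igtp and -2.30 for Ifi47. It differed from that of WT sdCAMs by -2.43 for Igtp. The tests of reporter sdCAMs against Ccr2-/- and WT sdCAMs were added after the data were seen, and genotype, batch label, BLZ945, tamoxifen, sorting gate and control group cannot be told apart in them. Groups held 3 libraries, so single libraries far from their group were not tested.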

How the results depend on the processing

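Without TMM scaling, an alternative chosen after seeing the data, 1 of the 8 genes was called for LPS in WT sdCAMs (Irgm2 in place of Gbp2), 0 in tdT+ sdCAMs, 5 in tdT- sdCAMs and 5 in their mean. It gave 6 calls between WT cell types after LPS, with Igtp reversed to -1.58, 4 for the WT interaction, 1 for the genotype by BLZ945 interaction in sdCAMs, 4 between tdT+ and tdT- cells after LPS and 0 for reporter against WT sdCAMs. With tdT- of mouse 1 and tdT+ of mouse 7 exchanged, 0, 2 and 5 genes were called in tdT+, tdT- and their mean, and with both left out 0 in tdT+ and 4 in the mean. Fitting the compared libraries alone gave 1 call in tdT+, and the study's low-count rule 5 in the mean. DESeq2 gave 1 call for BLZ945 in Ccr2-/- sdCAMs, 2 and 3 between WT cell types at rest and after LPS and 2 for the Ccr2-/- interaction. Median-of-ratios factors gave 2 at rest in WT, and the IEG covariate 2 at rest and 1 after LPS. The mouse block for paired samples gave 3 calls between WT cell types after LPS and 2 for the Ccr2-/- interaction, and otherwise moved no count by over 1.5 times. The cause of these changes was not tested.

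Leaving out 1 library at a time gave 2 to 7 calls for LPS in WT MG, 0 to 2 in WT sdCAMs, 0 to 2 in tdT+, 3 to 6 in tdT- and 4 to 7 in their mean. It gave 1 to 3 between WT cell types after LPS, 1 to 2 for the Ccr2-/- interaction, 0 to 1 for genotype in untreated MG, 0 to 2 for the genotype by BLZ945 interaction in sdCAMs and 1 to 2 for reporter against WT sdCAMs. Of 234 such counts 199 stayed within 1.5 times the reported one. Groups of 3 and, for Ifi47 in untreated WT MG, counts of 10 or fewer limit the precision.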
